A study of Mus musculus with 9 samples.

Results

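The 33 antioxidant and Nrf2 target genes described here are a set of genes chosen by name: the transcription factor gene Nfe2l2 (which encodes Nrf2), its repressor Keap1, and 31 genes for the enzymes and carriers that remove reactive oxygen and supply the reducing power for it. All 33 were on the array, on 47 of its 55681 probes, and all 33 were among the 19913 genes tested. They were followed in mouse embryonic stem cells in which Xpc, a sensor of DNA damage in nucleotide excision repair, had been lost. The 3 groups were subcloned Xpc-null cells (a constitutive knockout, titled Xpc_KO), cells 4 days after induced deletion of Xpc (titled Xpc_f/f+Tx_day4, with Tx not spelled out), and floxed cells with no deletion (titled Xpc_f/f-Tx), in which loxP sites flank Xpc so that Cre recombinase can remove it. Each group had 3 arrays of Cy3-labelled RNA, 9 in all, and this number limits the precision of every value. The inducible cells are a single line, the promoter that drives Cre and the number of subclones behind the null arrays are not given in the sources used here, and no group carried the Tx label without the deletion. In the induced cells, the effect of induction and that of Xpc loss therefore cannot be told apart. In the null cells, differences that came with subcloning cannot be told apart from the effect of Xpc loss. It is not given either whether the arrays of each group came from independent cultures, so p-values measure only the spread between these samples, which may be technical. Loss of Xpc protein has been associated with oxidative damage, the reason for looking at this set of genes.

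Nrf2 is held in the cytoplasm by Keap1, which hands it to a ubiquitin ligase for destruction. When oxidants or electrophiles modify Keap1, Nrf2 accumulates, pairs with a small Maf protein in the nucleus and binds the antioxidant response element, which switches on genes for glutathione synthesis, the thioredoxin system, quinone and heme breakdown and NADPH supply. Because Nrf2 is controlled mainly at the level of its protein, the transcripts of its targets are the usual readout of its activity. Other genes in the set (superoxide dismutases, catalase, most peroxiredoxins and glutathione peroxidases) carry out the removal of superoxide and peroxides and are only in part under Nrf2.

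The core of the antioxidant response element, TGACNNNGC, was searched on both strands of the RefSeq promoter windows (GRCm38.p6, 250 bases before to 50 after each start). Windows were matched for 28 of the 33 genes. Hmox1, Gclc, Gsr, Prdx6 and Gsta4 were not matched. The letters occurred in 8 of the 28 genes (28.6%) and in 8 of their 37 windows (21.6%), against 3781 of 27025 genes (14%) and 4071 of 32851 windows (12.4%) in all of RefSeq. A match is a description of letters and not a binding site. The 8 matches are shown because these letters are the core of the element that Nrf2 is known to bind, each read 5′ to 3′ on the strand that carries the core, with the core in capitals.
G6pdx: gtgtgcttTGACTGAGCtgacccgc
Gclm: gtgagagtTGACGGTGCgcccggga
Me1: tgccgccgTGACTCAGCgcttctcg
Nfe2l2: agcccaccTGACTCCGCcatgcccc
Prdx1: acgggggaTGACTCAGCgctttccc
Sod1: cctgagtcTGACCACGCccaccttg
Srxn1: tctcactcTGACCTAGCtgcccact
Txnrd1: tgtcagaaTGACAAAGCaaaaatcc
The G6pdx site lies at chrX:74428921-74428945 on the plus strand, and its core runs from base -57 to base -49 counted from the start. Gclm has its site at chr3:122245415-122245439 on the minus strand (-134 to -126), and Me1 at chr9:86695904-86695928 on the minus strand, across the start itself (-6 to 2). That of Nfe2l2, the gene of Nrf2, is at chr2:75704887-75704911 on the minus strand (-240 to -232). Prdx1 has it at chr4:116685458-116685482 (-133 to -125), Sod1 at chr16:90220698-90220722 (-56 to -48), Srxn1 at chr2:152105544-152105568 (28 to 36) and Txnrd1 at chr10:82859106-82859130 (-92 to -84), all on the minus strand. The matched windows of Txnrd2, Gpx4 and Nqo1, genes on which the results below turn, did not hold these letters.

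Values are log2 of the processed signal minus log2 of the array's 75th percentile, called the relative log2 signal, so that 0 is a probe at that percentile. Xpc checked the labels: its relative log2 signal was -0.85, -1.53 and -1.37 on null arrays 1 to 3, -1.11, -0.68 and -1.05 on induced arrays 1 to 3, and 0.59, 0.55 and 0.16 on floxed arrays 1 to 3. Null and induced arrays were all below the floxed ones, with log2 changes of -1.68 (null minus floxed, limma adjusted p = 5.16e-05 over the 3 comparisons) and -1.38 (induced minus floxed, limma adjusted p = 0.000122). Adjusted over all 19913 genes, as for the members, the Xpc change passed for null minus floxed (limma adjusted p = 0.00584) and did not pass for induced minus floxed (limma adjusted p = 0.224). Null minus induced was -0.30 (limma adjusted p = 0.167 over the 3 comparisons and 0.386 over all genes). Without null array 1 it was -0.50 (limma adjusted p = 0.0247 over the 3 comparisons). Whether its single probe lies in the deleted part is not known. The arrays sat on 3 slides, each scanned once: slide 1 held floxed arrays 1 and 2, slide 2 held null array 3 and floxed array 3, and slide 3 held null arrays 1 and 2 and the 3 induced arrays. No slide held induced and floxed arrays together. Floxed array 3 stood apart from floxed arrays 1 and 2, by a difference with an SD of 0.492 over all genes. Between 47.4% and 57.9% of spots per array lay well above background, and the probe that stood for each of the 33 genes did so on all 9 arrays.

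In null cells a single member changed past the test against either other group: Txnrd2, the mitochondrial thioredoxin reductase, fell to 58.1% of its floxed level and to 62.2% of its induced level. In cells 4 days after deletion, none of the 33 genes passed the test. The classical Nrf2 targets Hmox1, Gclc, Gclm, Srxn1 and Txnrd1 did not pass in any comparison, and nor did Nfe2l2 or Keap1. Nqo1 and G6pdx were the members that stood highest in null cells, at 149% and 146% of the floxed level, and Gpx4 was next to Txnrd2 among the lower ones, at 66.3%, all of them short of the threshold.

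With limma and Benjamini-Hochberg adjustment over all genes, 1 of 33 members passed an adjusted p of 0.05 for null minus floxed, against 368 of the 19913 genes tested (1.85%). Between null and induced cells it was again 1 of 33, against 438 genes (2.2%). For induced minus floxed it was 0 of 33, against 1 gene (0.00502%), and 0 members had an unadjusted p under 0.05, against 1177 genes (5.91%). At an unadjusted p under 0.05, 7 members were counted for null minus floxed (22.8% of all genes) and 7 for null minus induced (23.8% of all genes), so the members' share of 21.2% lay near that of all genes both times. The comparisons with floxed cells share the floxed arrays, and both comparisons of null cells share the null arrays.

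**Figure D1:**
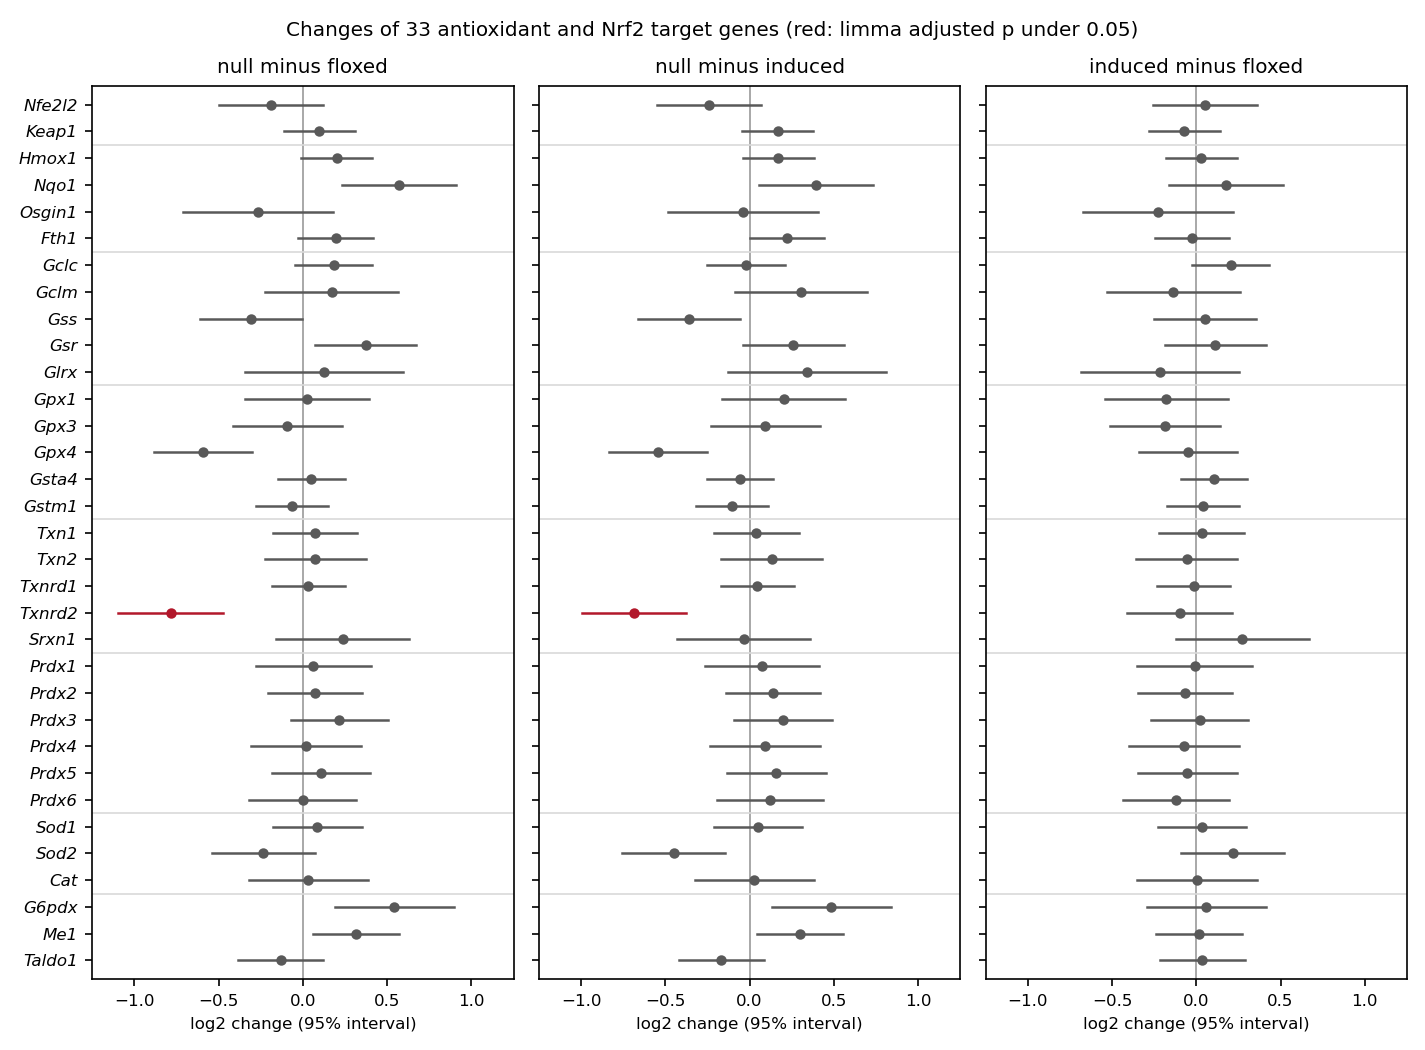
Log2 change of each of the 33 genes (points) with its 95% interval (lines) for null minus floxed, null minus induced and induced minus floxed cells, 3 arrays a group, with grey lines between functional groups. Txnrd2 is the member past the threshold (red) in both comparisons of null cells, and in the comparison of induced with floxed cells every interval lies between -0.68 and 0.67.

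The medians of the set lay close to those of all genes. Its median log2 change was 0.07 for null minus floxed (0.01 over all genes), with 23 of 33 members above 0, where 51.8% of all genes were. With slide as a fixed block that median turned to -0.03 (15 of 33 above 0), and as a random block to -0.0021 (16 of 33). Between null and induced cells the median was 0.09 (0.02 over all genes), with 22 of 33 above 0 (53.4% of all genes). For induced minus floxed it was 0.0046 (-7e-04 over all genes), with 17 of 33 above 0 (49.8% of all genes), and it was -0.11 with slide as a fixed block. The 95% intervals come from the fit without slide. The interval for induced minus floxed lay within 1 on the log2 scale for all 33 members and within 0.5 for 25 of them. For null minus floxed these counts were 32 and 20, and for null minus induced 33 and 21. A shift between slides is not covered by them, and no slide held induced and floxed arrays together. Over the alternatives run, induced minus floxed reached -0.87 for Glrx and -0.43 for Nqo1. Both values lie outside the intervals of these genes (-0.68 to 0.25 and -0.16 to 0.51). Among the named genes, the intervals were also left by Gpx1 (-0.73), Gclm (-0.69), Gpx3 (-0.56), Osgin1 (0.47) and Gclc (-0.058).

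The regulators come first. Nfe2l2 had a relative log2 signal of 3.27, 3.30 and 3.17 on null arrays, 3.53, 3.37 and 3.56 on induced arrays, and 3.56, 3.61 and 3.13 on floxed arrays. Null arrays lay below all induced arrays but overlapped the floxed ones, because floxed array 3 was the lowest of the 9. Its log2 change was -0.24 for null minus induced (SE 0.14, limma adjusted p = 0.316) and -0.19 for null minus floxed (limma adjusted p = 0.434), and it was 0.05 for induced minus floxed. Without floxed array 3, null minus floxed was -0.34 and passed (limma adjusted p = 0.0323), and induced minus floxed turned to -0.10. Keap1, the adaptor that targets Nrf2 for destruction, had 1.58, 1.78 and 1.61 on null arrays, 1.46, 1.48 and 1.54 on induced arrays, and 1.48, 1.63 and 1.57 on floxed arrays. Its null arrays lay above all induced arrays and among the floxed ones, with changes of 0.17 and 0.10 (limma adjusted p = 0.305 and 0.557).

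Among the targets for heme, quinones and iron, Hmox1 encodes heme oxygenase, which breaks down heme. It stood at 3.98, 4.06 and 3.83 on null arrays, 3.84, 3.72 and 3.80 on induced arrays, and 3.76, 3.80 and 3.71 on floxed arrays. Every null array was above every floxed array, by a mean of 0.20 (SE 0.09, limma adjusted p = 0.239), and its other probe gave 0.10. In cells 4 days after deletion its mean differed from the floxed mean by 0.03, with a 95% interval from -0.18 to 0.24, and by -0.13 at the other probe. Nqo1 encodes a quinone reductase and is a standard reporter of Nrf2. It had 0.07, 0.26 and -0.32 on null arrays, -0.38, -0.44 and -0.36 on induced arrays, and -0.73, -0.53 and -0.44 on floxed arrays. The null arrays were above all others, and the induced arrays above all floxed ones. Null array 3, from slide 2, stood near the induced arrays, away from the other null arrays. Nqo1 was higher by 0.57 for null minus floxed (SE 0.15, limma adjusted p = 0.0865) and by 0.39 for null minus induced (limma adjusted p = 0.159), and induced minus floxed was 0.18 (limma adjusted p = 0.968). On slide 2, null array 3 exceeded floxed array 3 by 0.13. Without null array 3 the change against floxed cells was 0.73 (limma adjusted p = 0.0425), and without floxed array 3 it was 0.63 (limma adjusted p = 0.0256).

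Osgin1, a growth inhibitor gene induced by oxidative stress, varied most among the null arrays. It had -2.09, -2.32 and -1.47 on null arrays, -1.81, -1.92 and -2.02 on induced arrays, and -1.84, -1.58 and -1.66 on floxed arrays. Both the highest and the lowest of the 9 values were null arrays. It was nonetheless among the 4 most negative members for null minus floxed (-0.27, limma adjusted p = 0.442) and the most negative for induced minus floxed (-0.23). Fth1, the ferritin heavy chain that stores iron, differed by 0.22 for null minus induced, with the groups apart, and by 0.19 for null minus floxed (limma adjusted p = 0.21 and 0.269).

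**Figure D2:**
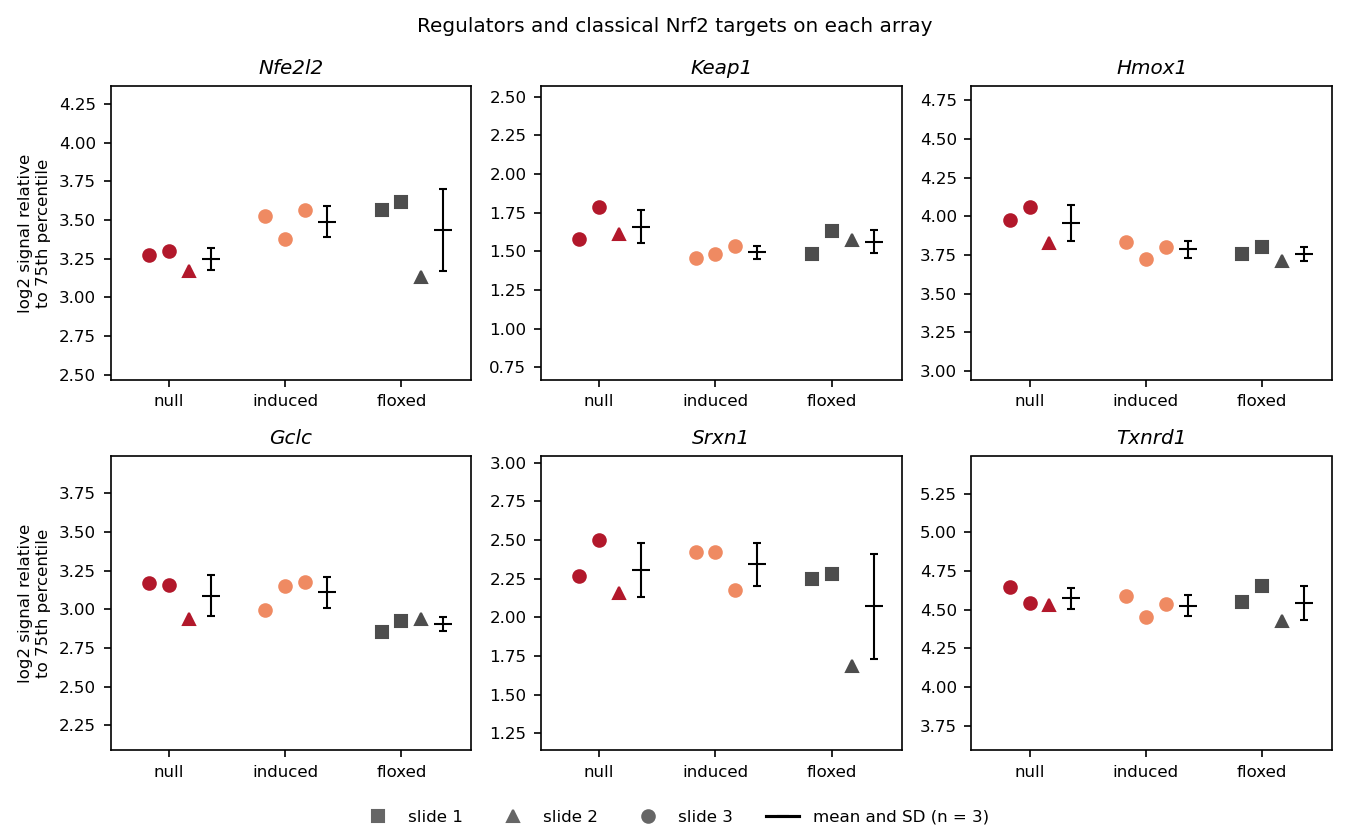
Relative log2 signal of Nfe2l2, Keap1, Hmox1, Gclc, Srxn1 and Txnrd1 on each of the 9 arrays (points, shaped by slide) with the mean and SD of each group beside them (n = 3). The group means of each gene differ by 0.27 or less, and floxed array 3 is the low point for Nfe2l2, at 3.13, and for Srxn1, at 1.68.

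Glutathione is made by the Gclc-Gclm ligase and by Gss, and its oxidised form is reduced by Gsr. Gclc, the catalytic subunit of the rate-limiting ligase, had 3.17, 3.16 and 2.93 on null arrays, 2.99, 3.15 and 3.18 on induced arrays, and 2.85, 2.92 and 2.94 on floxed arrays. Every induced array exceeded every floxed array, by a mean of 0.20 (SE 0.10, limma adjusted p = 0.895), the third highest of the 33 changes in that comparison. Gclc, Nqo1 and Gsta4 were the 3 members whose induced arrays all lay above the floxed ones, 9.09% of the set against 6.63% of all genes. None of the 33 lay below in this way (6.26% of all genes).

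Gclm, the modifier subunit, had 0.92, 0.87 and 0.80 on null arrays, 0.55, 0.51 and 0.62 on induced arrays, and 0.46, 0.47 and 1.15 on floxed arrays. Null arrays were above all induced arrays, by 0.31 (limma adjusted p = 0.314), while floxed array 3 was the highest of all. Without that array, null minus floxed was 0.40 and passed (limma adjusted p = 0.0116). Gss, glutathione synthetase, ran the other way, with 1.21, 1.06 and 1.01 on null arrays, 1.53, 1.36 and 1.46 on induced arrays, and 1.48, 1.59 and 1.12 on floxed arrays. It was -0.36 for null minus induced, with the groups apart (SE 0.13, limma adjusted p = 0.154), and -0.31 for null minus floxed (limma adjusted p = 0.213), where floxed array 3 lay inside the null range.

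Gsr, glutathione reductase, had 4.74, 4.66 and 4.26 on null arrays, 4.31, 4.18 and 4.39 on induced arrays, and 4.16, 4.15 and 4.23 on floxed arrays. Null arrays were above all floxed arrays, by 0.37 (SE 0.13, limma adjusted p = 0.151), and a second probe gave 0.43. Both slide 2 arrays lay close together, null array 3 above floxed array 3 by 0.03. Glrx, glutaredoxin, which reduces protein-glutathione disulfides, had 2.16, 2.05 and 2.01 on null arrays, 1.81, 1.66 and 1.72 on induced arrays, and 1.70, 1.64 and 2.51 on floxed arrays. It had the widest floxed spread of the set, with floxed array 3 above every other array. Null minus induced was 0.34 with the groups apart (limma adjusted p = 0.346), and induced minus floxed was -0.22, which turned to 0.06 without floxed array 3.

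Glutathione peroxidases spend glutathione to reduce peroxides, and Gpx4 does so for lipid peroxides in membranes and guards cells against ferroptosis. Its relative log2 signal was 6.85, 7.12 and 6.95 on null arrays, 7.70, 7.36 and 7.49 on induced arrays, and 7.63, 7.68 and 7.39 on floxed arrays. All 3 null arrays lay below all 6 other arrays. The change was -0.59 for null minus floxed (SE 0.13, limma adjusted p = 0.0598) and -0.54 for null minus induced (SE 0.13, limma adjusted p = 0.0685), and -0.05 for induced minus floxed with an interval from -0.34 to 0.24. Null array 3 was lower than floxed array 3 on their shared slide by a log2 difference of -0.45. Gpx4 passed in 4 of 20 alternatives against floxed cells (limma adjusted p from 0.00734 to 0.513) and in 7 of 21 against induced cells (limma adjusted p from 0.0157 to 0.205).

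Gpx1, the main cytosolic peroxidase, had 5.74, 6.09 and 5.70 on null arrays, 5.70, 5.603 and 5.63 on induced arrays, and 5.64, 5.67 and 6.16 on floxed arrays. Null arrays were just above the induced ones (0.20, limma adjusted p = 0.471), and floxed array 3 was the highest of all. Gpx3, the secreted peroxidase, had -1.43, -1.19 and -1.58 on null arrays, -1.27, -1.67 and -1.54 on induced arrays, and -1.46, -1.27 and -1.20 on floxed arrays. The 3 groups overlapped, and no Gpx3 change exceeded 0.19 in size. Gsta4, which conjugates lipid aldehydes to glutathione, was 0.11 higher in induced than in floxed cells, with the groups apart (limma adjusted p = 0.968). Gstm1 changed by no more than 0.10 at its brightest probe, but the file places that probe on chromosome 5. Its other probe is placed on chromosome 3, where the gene lies. That probe gave 0.24 for induced minus floxed, -0.04 for null minus floxed and -0.28 for null minus induced, so the value of Gstm1 is uncertain.

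In the thioredoxin system, reductases pass electrons from NADPH to thioredoxins, which serve the peroxiredoxins. Txnrd2 does this in mitochondria. It had a relative log2 signal of 1.49, 1.61 and 1.45 on null arrays, 2.32, 2.14 and 2.14 on induced arrays, and 2.46, 2.44 and 1.997 on floxed arrays. The 3 null arrays lay below all 6 others, and the group means were 1.52 ± 0.08 in null, 2.20 ± 0.10 in induced and 2.30 ± 0.26 in floxed cells (SD, n = 3 each). Txnrd2 fell by 0.78 for null minus floxed (SE 0.14, limma adjusted p = 0.0306) and by 0.69 for null minus induced (SE 0.14, limma adjusted p = 0.0441), and was at -0.10 for induced minus floxed, with a 95% interval from -0.41 to 0.21. On slide 2, null array 3 lay below floxed array 3 by a log2 difference of -0.55, and among slide 3 arrays the null change against induced was -0.65 (limma adjusted p = 0.0166).

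Txnrd2 was lower in null cells under every alternative run, but it did not pass in all of them. Its null minus floxed change ran from -0.94 to -0.55 over the alternatives, with limma adjusted p from 0.000632 to 0.253. Leaving out floxed array 3 gave the largest change, -0.94 (limma adjusted p = 0.000632), and leaving out any 1 of the other 8 arrays ended the call, at -0.70 to -0.83. Slide as a fixed block (-0.55, limma adjusted p = 0.253), slide as a random block (-0.69, limma adjusted p = 0.0891), no filter on dim probes (limma adjusted p = 0.147) and a fit of the 2 groups alone (limma adjusted p = 0.1) ended it as well. Against induced cells the change ran from -0.73 to -0.63, with limma adjusted p from 0.00223 to 0.163, and there too leaving out any 1 array other than floxed array 3 ended the call, as did applying no filter on dim probes (limma adjusted p = 0.154) and the replicate block (limma adjusted p = 0.0604). In bulk RNA, fewer cells of a type and less RNA per cell cannot be told apart.

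Txnrd2 was read by 1 probe, whose mm9 position in the file is chr16:18479106-18479165 (plus strand).

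Txnrd1, the cytosolic reductase and a classical Nrf2 target, had 4.65, 4.54 and 4.53 on null arrays, 4.59, 4.45 and 4.54 on induced arrays, and 4.55, 4.65 and 4.43 on floxed arrays. The groups overlapped, with a change of 0.03 for null minus floxed (95% interval -0.18 to 0.25). Srxn1, sulfiredoxin, which revives over-oxidised peroxiredoxins, had 2.27, 2.498 and 2.16 on null arrays, 2.43, 2.42 and 2.18 on induced arrays, and 2.25, 2.28 and 1.68 on floxed arrays. The highest value for induced minus floxed in the set was that of Srxn1, 0.27 (SE 0.17, limma adjusted p = 0.947), with overlapping groups. Floxed array 3 was far below the rest, and without it the difference was 0.08. The thioredoxins Txn1 (cytosolic) and Txn2 (mitochondrial) changed by at most 0.13 in any comparison, although another Txn2 probe gave 0.42 for null minus floxed and 0.54 for null minus induced.

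The 6 peroxiredoxins, the peroxidases served by thioredoxin, did not pass in any comparison. Prdx3, the mitochondrial one, was at 0.22 for null minus floxed and 0.20 for null minus induced. The other 5 lay between 0 and 0.11 for null minus floxed, and all 6 between 0.07 and 0.20 for null minus induced. Induced minus floxed ran from -0.12 (Prdx6) to 0.02 (Prdx3). These are the values of the brightest probes. Another Prdx4 probe, above background on 7 arrays, gave 0.21 for induced minus floxed and 0.29 for null minus floxed. Other Prdx6 probes above background on all 9 arrays gave 0.03 and 0.06 for induced minus floxed, and -0.0018 and 0.04 for null minus induced. Prdx1, whose promoter window holds the core shown above, was at 0.06 for null minus floxed with an interval from -0.28 to 0.40.

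Of the enzymes that remove superoxide and hydrogen peroxide, Sod2, the mitochondrial superoxide dismutase, had 6.62, 6.81 and 6.71 on null arrays, 7.28, 7.15 and 7.07 on induced arrays, and 7.03, 7.15 and 6.67 on floxed arrays. Null arrays were below all induced arrays, by a log2 change of -0.45 (SE 0.14, limma adjusted p = 0.106), and overlapped floxed array 3. Null minus floxed was -0.23 (limma adjusted p = 0.328), and on slide 2 null array 3 exceeded floxed array 3 by 0.05. Sod1, the cytosolic form, was at 0.08 and 0.05 for null minus floxed and null minus induced, and Cat, catalase of peroxisomes, at 0.03 in both. A second Cat probe gave 0.15 and -0.34, and 0.50 for induced minus floxed, where the brighter probe gave 0.0046.

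**Figure D3:**
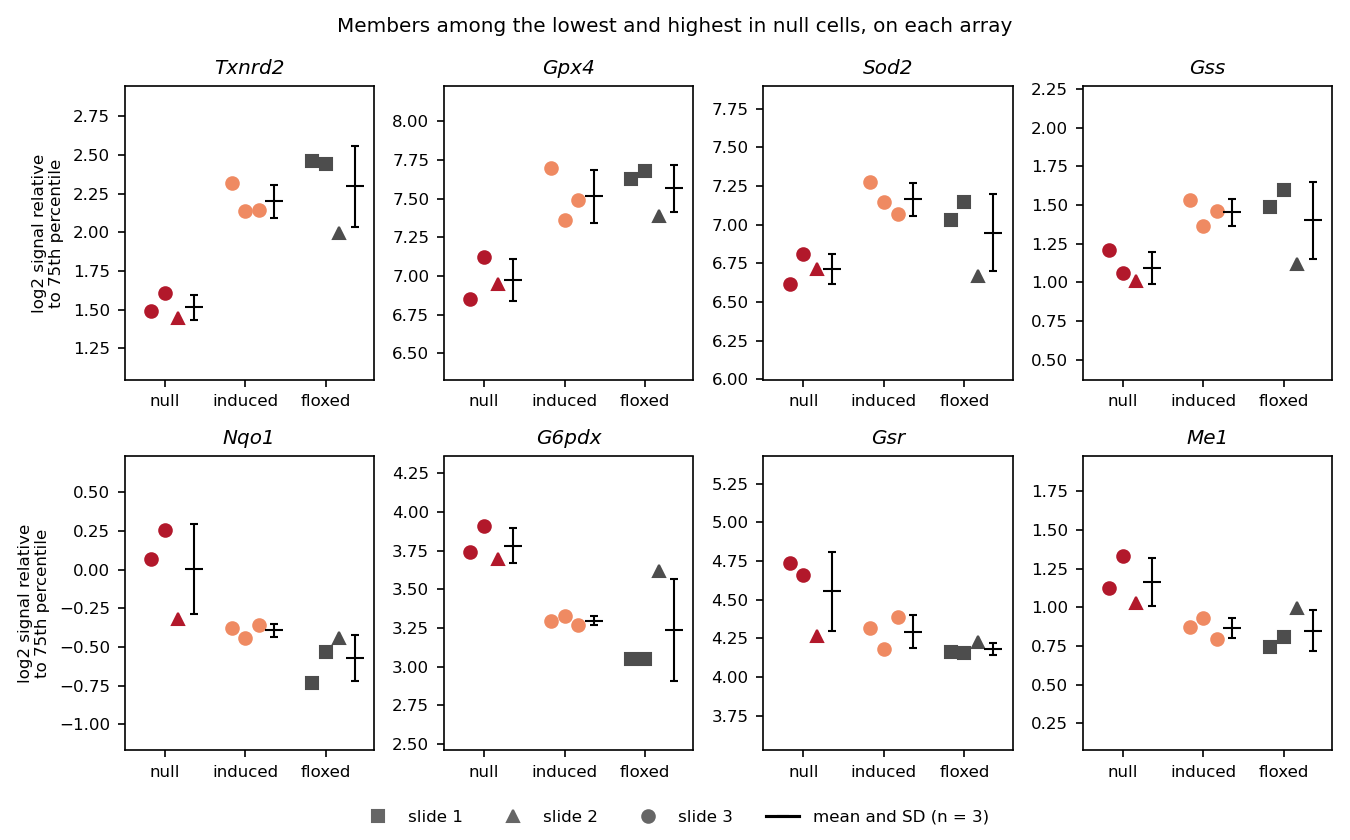
Relative log2 signal of 8 members among the lowest and highest in null cells, on each of the 9 arrays (points, shaped by slide), with the mean and SD of each group (n = 3). For Txnrd2 and Gpx4 all null arrays lie below all others, at 1.61 and 7.12 or less, and for Nqo1, G6pdx and Me1 all lie above, while the slide 2 floxed array (triangle) is the floxed array nearest to the null arrays for all 8 genes.

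NADPH feeds both the glutathione and the thioredoxin systems. G6pdx, the entry enzyme of the pentose phosphate pathway, had 3.74, 3.91 and 3.70 on null arrays, 3.30, 3.33 and 3.27 on induced arrays, and 3.05, 3.05 and 3.62 on floxed arrays. The null arrays lay above all 6 others, floxed array 3 closest to them. G6pdx was higher by 0.54 for null minus floxed (SE 0.16, limma adjusted p = 0.103) and by 0.48 for null minus induced (SE 0.16, limma adjusted p = 0.12), and was at 0.06 for induced minus floxed. On slide 2 the null array exceeded the floxed array by 0.07. Among slide 3 arrays the null minus induced difference was 0.53 and passed (limma adjusted p = 0.0241), and without floxed array 3 null minus floxed was 0.73 and passed (limma adjusted p = 0.00135).

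Me1, malic enzyme, had 1.12, 1.33 and 1.03 on null arrays, 0.88, 0.93 and 0.79 on induced arrays, and 0.74, 0.81 and 0.99 on floxed arrays. Null arrays were again above all others, by 0.31 against floxed (SE 0.11, limma adjusted p = 0.153) and 0.30 against induced cells (limma adjusted p = 0.161). Null array 3 and floxed array 3 differed by 0.04. Other Me1 probes gave 0.13 and 0.34 for null minus floxed. Taldo1, transaldolase of the same pentose pathway, was at -0.13 and -0.17 in the comparisons of null cells.

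Counted over the set, the null arrays lay above all floxed arrays for 5 members (Hmox1, Nqo1, Gsr, G6pdx and Me1), 15.2% against 12% of all genes, and below them for 2 members (Gpx4 and Txnrd2), 6.06% against 11.4% of all genes. Against induced arrays, 8 members lay above (Keap1, Nqo1, Fth1, Gclm, Glrx, Gpx1, G6pdx and Me1), 24.2% against 19% of all genes. In that comparison 5 lay below (Nfe2l2, Gss, Gpx4, Txnrd2 and Sod2), 15.2% against 18.3% of all genes. The members' shares lay near those of all genes. Of the 8 genes with the core in their window, none passed. G6pdx and Me1 were among the higher members in null cells, and Txnrd1, Prdx1 and Sod1 changed by less than 0.10 in each comparison. Gclm was at 0.17 for null minus floxed and 0.31 for null minus induced, Srxn1 at 0.24 and -0.03, and Nfe2l2 at -0.19 and -0.24.

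Floxed array 3 differed from the other floxed arrays for several members. Relative to the mean of floxed arrays 1 and 2, it differed by over 0.5 on the log2 scale for 5 members, against 22.4% of all genes: Glrx (0.84), Gclm (0.68), G6pdx (0.57), Gpx1 (0.51) and Srxn1 (-0.58). Next came Prdx6 (0.46), Nfe2l2 (-0.46), Txnrd2 (-0.45), Prdx4 (0.42), Sod2 (-0.42), Prdx1 (0.42) and Gss (-0.42). For all of these genes but Srxn1 the differences have the same sign as the null cells' distance from floxed arrays 1 and 2, and for Srxn1 the opposite sign. Null array 3, on the same slide, differed from null arrays 1 and 2 by over 0.5 for 1 member, Osgin1 (0.73), against 12.5% of all genes. Without floxed array 3, 10 of 33 members passed for null minus floxed (30.3%), against 24.9% of all genes. They were G6pdx, Gclm, Glrx, Me1 and Nqo1 on the higher side and Gpx4, Gss, Nfe2l2, Sod2 and Txnrd2 on the lower side. For null minus induced 7 passed without it (21.2%, against 18.1% of all genes). The part of the slide in this was not tested.

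**Figure D4:**
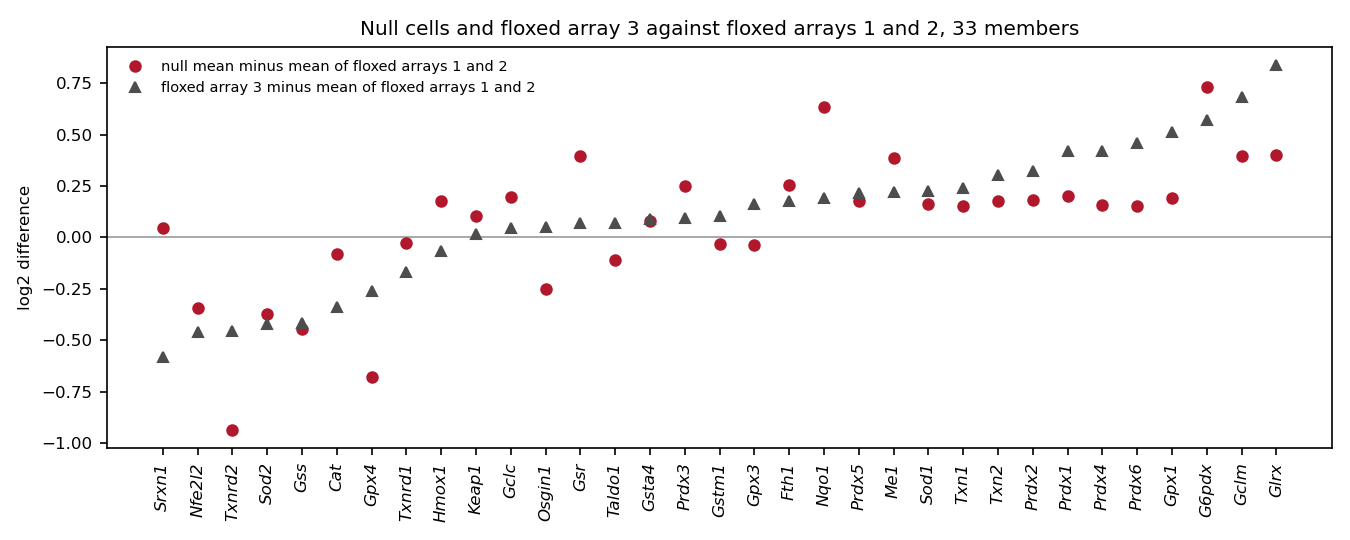
Log2 difference of the null mean (circles) and of floxed array 3 (triangles) from the mean of floxed arrays 1 and 2, for each of the 33 genes in order of floxed array 3. The array runs from -0.58 for Srxn1 to 0.84 for Glrx, and for Txnrd2 and Gpx4 the null mean lies below it.

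Within slides the comparison of null with induced cells could be made on slide 3, with 2 null and 3 induced arrays. There 3 members passed, 9.09% of the set against 12.4% of all genes: Txnrd2 lower, and G6pdx and Nqo1 (0.55, limma adjusted p = 0.0232) higher. With slide as a fixed block 10 members passed in that comparison, 30.3% against 16.3% of all genes, 7 higher (G6pdx, Gclm, Glrx, Gsr, Me1, Nqo1 and Prdx3) and 3 lower (Gpx4, Sod2 and Txnrd2). With the same block, null minus floxed rests on null array 3 and floxed array 3 alone, and 0 members passed, against 0.251% of all genes. Induced minus floxed then has no slide of its own and is reached through null cells, and 0 of 33 members passed in it under any alternative run.

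**Figure D5:**
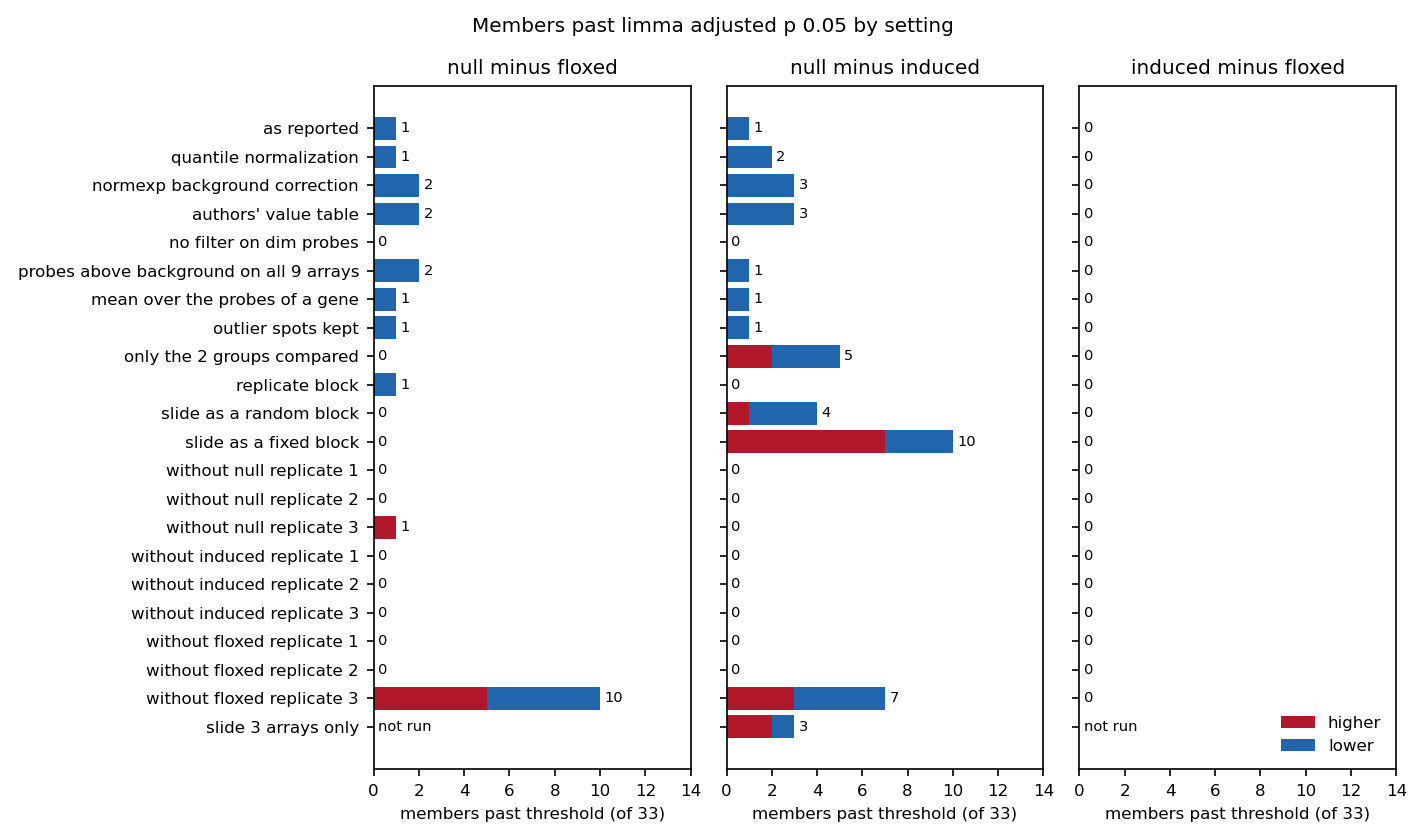
Number of the 33 genes past a limma adjusted p of 0.05 (bars, higher in red and lower in blue) under each setting of the analysis, for the 3 comparisons. The count for induced minus floxed is 0 throughout, and it runs from 0 to 10 for null minus floxed and for null minus induced.

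Genes around the set were read from lists that were chosen with earlier results of these data known. Of 12 partners and repressors of Nrf2, 11 were tested, and 1 passed: Maff, a small Maf partner, was higher in null than in floxed cells by 0.67 (limma adjusted p = 0.0401). It stood at -0.68, -0.33 and -0.60 on null arrays, -0.94, -0.96 and -0.97 on induced arrays, and -1.15, -1.42 and -1.05 on floxed arrays, without overlap. The list's median was -0.03 for null minus floxed, -0.03 for null minus induced and -0.01 for induced minus floxed. Of 51 other antioxidant and detoxification genes 47 were tested, with none past the threshold for null minus floxed (median 0.0017) or induced minus floxed (median 0.05). Between null and induced cells 2 passed (median -0.01): Chac1, which breaks down glutathione (-3.19, limma adjusted p = 0.0465), and Gstm2, a glutathione transferase (-0.53, limma adjusted p = 0.047), both lower in null cells. Gstm2 belongs to a family of close copies, so its value is uncertain. Gpx2, another glutathione peroxidase, lay the other way and did not pass. It had 2.12, 2.46 and 2.20 on null arrays, 1.05, 0.46 and 0.81 on induced arrays, and 0.75, 0.41 and 1.999 on floxed arrays. Its null minus floxed change was 1.21 with the groups apart (limma adjusted p = 0.108). None of the 10 genes for repair of oxidised bases passed in any comparison, with medians of 0.0025, -0.06 and 0.07 for null minus floxed, null minus induced and induced minus floxed.

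Genes of the Atf4 branch of the stress response, which shares targets such as Chac1 with the antioxidant genes, were read in the same way. Of 15 listed 14 were tested, and 3 fell in null against floxed cells (Atf3 by 1.93, Atf4 by 1.31 and Mthfd2 by 1.004, limma adjusted p = 0.00758, 0.04 and 0.0433). Against induced cells 5 fell, Nupr1 (-3.22) and Chac1 (-3.19) the furthest, and 0 passed for induced minus floxed. Cbs, which makes cystathionine, lay the other way in null cells, at 0.52 for null minus floxed and 0.42 for null minus induced with the groups apart (limma adjusted p = 0.0985 and 0.133). Phgdh, Sesn2 and Slc3a2 lay between -0.40 and -0.23 in both comparisons and did not pass. The list's medians were -1.27 for null minus floxed, -1.27 for null minus induced and 0.09 for induced minus floxed. Atf4 stood at 5.36, 5.48 and 5.41 on null arrays, 7.07, 6.63 and 6.79 on induced arrays, and 6.999, 7.11 and 6.08 on floxed arrays, with floxed array 3 again the closest to the null arrays. That array lay below the mean of floxed arrays 1 and 2 for Nupr1 (-2.88), Chac1 (-2.87), Ddit3 (-2.40) and Trib3 (-2.15). On slide 2, null array 3 minus floxed array 3 was -0.58, -0.62, 0.02 and -0.14 for these genes. It was -0.67 for Atf4 and -1.98 for Atf3, so the list's fall against floxed cells rests in part on floxed arrays 1 and 2. Slc7a11, the cystine carrier that feeds glutathione synthesis, was not above background on all arrays of any group and was not tested.

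Several marker transcripts of other cell types differed in the null group. All 8 embryonic stem cell markers were measured and none passed, their summed level (relative to the 75th percentile) being 662 to 772 on null, 725 to 907 on induced and 782 to 878 on floxed arrays. Of 12 fibroblast markers 7 were tested, 6 were lower past the threshold in null cells in both comparisons, and 0 passed for induced minus floxed. Their sum was 8.77 to 10.6 on null, 20.1 to 27.7 on induced and 29.98 to 36.7 on floxed arrays. Col3a1 and Twist2 were not above background on any null array, and Postn, Lum, Dcn, Pdgfra and Pdgfrb were not tested in any group. Of 6 trophectoderm markers 5 were tested, of which 5 were lower past the threshold in null than in floxed cells, 4 in null than in induced cells and 0 in induced than in floxed cells, with sums of 21.6 to 25.5 on null, 47.8 to 68.8 on induced and 66.3 to 88.9 on floxed arrays, Cdx2 being above background on no null array. Of 4 blood markers 3 were tested and none passed, with sums of 1.17 to 1.21 on null, 0.69 to 0.71 on induced and 0.48 to 1.12 on floxed arrays. Thy1, the other fibroblast marker tested, lay the other way, at 1.37 for null minus floxed and 1.34 for null minus induced with the groups apart, and did not pass (limma adjusted p = 0.104 and 0.103). Whether such cells were in the cultures was not tested, and nor was any part of theirs in the change of Txnrd2.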

How the data were processed

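RNA (50 ng per sample, per the labels) from 9 samples was hybridised to 1-colour Agilent arrays. The deposited scanner files hold spot intensity, background-subtracted and detrended within each array by Agilent Feature Extraction 10.7.3.1, with no scaling between arrays, per the file headers. The deposited series values equal the mean signal intensity for 100% of spots. The 75th percentile of the processed signal was 346 to 471 and local background 29 to 46.5. Control and outlier spots (148 to 188 per array) were left out, 27235 of 55681 probes were named through RefSeq accessions, and 27536 probes were kept because some group had them well above background on each of its 3 arrays, the brightest standing for a gene (10 members had several).

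Group means of all 9 arrays were fitted with limma 3.58.1 in R 4.3.3 (two-sided, Benjamini-Hochberg over 19913 genes, threshold 0.05). The fit was tested on simulated data with independent noise, no slide effect and 200 changed genes among 19913. It recovered 10.3% to 20.6% of simulated log2 changes of 0.5 over the 3 comparisons. Of changes of 1 it recovered 63.6% to 66.7%, and of changes of 2 it recovered 92.4% to 97%. Changes of 0.5 were therefore mostly missed in the simulation. These shares hold for the simulated setting and may not hold for these arrays. Alternatives were quantile scaling, normexp (offset 50), the authors' values, other probe filters, the mean over probes, outlier spots kept, slide and replicate blocks, only the groups compared and each array left out. The values within slides were added after seeing the data.

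Named on every array are Nfe2l2, Keap1, 6 classical targets, members that passed and the 4 most positive and 4 most negative in each comparison. Up to 3 passing genes of a list are named per direction. The members and lists were chosen with earlier results of these data known. Genes named outside the rule were chosen after their values were seen.

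Replicate numbers did not pair the samples: deviations of same-numbered arrays correlated at -0.106 to 0.0873.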

Additional observations from a re-analysis of the deposited data

How the results depend on the processing

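For induced minus floxed, 0 of 33 genes passed under every alternative run. For null minus floxed, against 1 as reported, 2 passed with normexp correction, with the authors' values and with probes above background on all 9 arrays, and 0 with no filter on dim probes, with slide as a fixed or a random block and with only the 2 groups compared, and leaving out 1 array at a time gave 0 to 10. For null minus induced, against 1, the count was 2 with quantile scaling, 3 with normexp correction, the authors' values or slide 3 arrays only, 0 with no filter, 10 and 4 with slide as a fixed and a random block, 5 with only the 2 groups compared, and 0 to 7 with 1 array left out. The cause was not tested. The numbers of all genes that passed for null minus floxed were 368 as reported, 570 with normexp correction (2.86%) and 461 with the authors' values (2.32%). With probes above background on all 9 arrays it was 427 (2.42%), where 2 members are 6.06% of the set. There were 76 with no filter, and 50 and 103 with slide as a fixed and a random block. The 2 groups alone gave 104, and leaving out 1 array gave 71 to 4970. For null minus induced 438 genes passed as reported and 471 with quantile scaling (2.37%, against 6.06% of members). Normexp correction gave 570 (2.86%) and the authors' values 452 (2.27%), against 9.09% of members both times. There were 63 with no filter, and 3249 and 1812 with slide as a fixed and a random block. The 2 groups alone gave 2807, slide 3 gave 2467 and leaving out 1 array gave 60 to 3612. For induced minus floxed the number was 1 as reported, 174 with slide as a fixed block and 0 to 156 with 1 array left out.

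With the replicate block, null minus floxed kept Txnrd2 (limma adjusted p = 0.0487, 166 genes in all) and null minus induced lost it (0 members, limma adjusted p = 0.0604, 188 genes in all), and induced minus floxed had 0 members.

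The members' median with slide as a fixed block was -0.03 for null minus floxed (15 of 33 above 0), 0.07 for null minus induced (22 of 33) and -0.11 for induced minus floxed (12 of 33). With slide as a random block it was -0.0021 (16 of 33), 0.06 (23 of 33) and -0.04 (11 of 33), and with 1 array left out it ran from 0.02 to 0.16, 0.02 to 0.15 and -0.05 to 0.05, all in the same order. Xpc was between -1.88 and -1.54 for null minus floxed, -0.50 and -0.17 for null minus induced, and -1.51 and -1.30 for induced minus floxed with 1 array left out. These named genes changed sign, none past the test. With slide as a fixed block, Gclc (-0.0032), Gclm (-0.35), Nfe2l2 (0.038) and Osgin1 (0.19) did so for null minus floxed, Gclc (0.055) and Srxn1 (0.040) for null minus induced, and Gclc (-0.058), Hmox1 (-0.12), Nqo1 (-0.43), Osgin1 (0.47) and Txnrd1 (0.034) for induced minus floxed. With slide as a random block these were Gclm (-0.044) for null minus floxed, Gclc (0.018) and Srxn1 (0.032) for null minus induced, and Hmox1 (-0.041), Nqo1 (-0.086) and Osgin1 (0.095) for induced minus floxed. On slide 3 they were Gclc (0.055) and Srxn1 (0.040) for null minus induced, with the mean over probes Hmox1 (-0.051) for induced minus floxed, and with normexp correction Txnrd1 (-0.011) for null minus floxed. With 1 array left out, Txnrd1 ran from -0.026 to 0.085 for null minus floxed, Gclc from -0.079 to 0.055 and Srxn1 from -0.13 to 0.040 for null minus induced, and Gclm from -0.25 to 0.091, Glrx from -0.37 to 0.063, Nfe2l2 from -0.10 to 0.14 and Txnrd1 from -0.072 to 0.040 for induced minus floxed.

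Signal over background was sufficient on the 9 arrays for the probe that stood for each member, and the number of arrays limits the precision.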
